A study of Mus musculus with 48 samples.

Results

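Cardiomyocytes with C3H mitochondria were compared with cardiomyocytes with C57 mitochondria on the same C57 nuclear background. The comparison used 12 of the 48 libraries of the series, chosen by their titles: 6 libraries labelled MNX C57n:C3Hmt (libraries 7 to 12) and 6 labelled WT C57B6J (libraries 1 to 6, written C57n:C57mt here). MNX stands for mitochondrial-nuclear exchange, a cross of genomes in which the nucleus of one inbred strain is placed with the mitochondria of another. The treatment label of all 12 libraries was sham surgery at 3 days, although their titles carry no surgery word, and no surgically overloaded heart was among them. The labels give no age or sex for these mice.

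Per the labels' protocols, heart cells were released by collagenase perfusion after the right ventricle and atria had been cut away, and pelleted at low speed before RNA extraction. Titles also carry a code of L and a digit whose meaning the labels do not give. All 6 C57n:C57mt libraries were L8, whereas C57n:C3Hmt held 2 L8 libraries (7 and 8) and 4 L2 libraries (9 to 12). The C57n:C57mt group therefore has no L2 library, and the code was treated as a possible batch by also comparing the groups within L8, 2 libraries against 6. Total counts were 15.97 to 23.98 M per library. The 6 most abundant features, mitochondrial transcripts among them, took 26.6% to 37.5% of the counts in 10 libraries and 50.5% and 53.5% in the 2 L8 exchange libraries. The cardiomyocyte marker list (Myh6, the adult myosin heavy chain, and 13 others) summed to 66090 to 75860 CPM (counts scaled to library size) in C57n:C57mt and 66060 to 80210 in C57n:C3Hmt, while no lymphocyte marker passed the filter on low counts.

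Mitochondria carry their own small genome, which encodes a few core subunits of the respiratory chain, the mitochondrial ribosomal RNAs and transfer RNAs. The other mitochondrial proteins are encoded in the nucleus, so the chain is assembled from both genomes. Adult heart muscle burns mainly fatty acids, and fatty acids entering the cell activate the PPAR nuclear receptors, which switch on genes of lipid storage, uptake and oxidation. An exchange of mitochondria on a fixed nucleus asks which transcripts differ when only the cytoplasmic genome has been replaced.

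Few genes separated the groups once all tests were counted. Angptl4, a secreted inhibitor of lipoprotein lipase and a PPAR target, fell in C57n:C3Hmt and was the single gene of 12897 tested that passed (edgeR quasi-likelihood test, Benjamini-Hochberg adjusted p below 0.05). That is 0.00775% of genes called lower and 0% called higher. At an unadjusted p below 0.05, 344 genes were higher (2.67%) and 807 lower (6.26%). Every C57n:C3Hmt library lay above every C57n:C57mt library for 37 genes (0.287%) and below for 38 (0.295%). The median log2 fold change over all genes was -0.0027, and 49.3% of genes had a positive value. Without C57n:C57mt libraries 1 and 2, 3.48% of genes were higher and 4.33% lower at an unadjusted p below 0.05. Below, "lower at p" or "higher at p" refers to this unadjusted edgeR p, and every other p is adjusted over all genes tested.

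Angptl4 had a lowest, median and highest log2 CPM of 1.88, 2.87 and 3.04 in C57n:C57mt and of 0.12, 0.77 and 1.32 in C57n:C3Hmt. The groups did not overlap, and the 6 exchange libraries were all low whatever their L code. The fitted level was 3.78-fold lower (log2 fold change -1.92, SE 0.24, adjusted p = 0.0131), with -1.95 (SE 0.39) within L8, where the adjusted p was 0.23. It lay between -2.06 and -1.75 in all 22 other settings tried, and the call held in 13 of them. The call was lost in the 24-library fits (adjusted p = 0.27, and 0.302 with the L code), with the L8 libraries alone (0.441), with the L2 exchange libraries alone (0.168) and without C57n:C57mt libraries 1 and 2 (0.117). It was also lost without library 3 (adjusted p = 0.0524), library 8 (0.058), library 9 (0.0555) or library 10 (0.071).

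Some other genes of fatty acid use that PPAR receptors are known to drive were also lower, without passing the 12-library test. The list of PPAR targets, drawn up after values had been seen, had 26 of 30 members tested. Of these, 6 were lower, Angptl4 among them, and 0 higher at p below 0.05 (6.26% and 2.67% of all genes). The median log2 fold change was -0.08.

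Ucp3, an inner-membrane carrier induced with fatty acid oxidation, had 5.02, 5.53 and 6.63 in C57n:C57mt and 4.27, 4.78 and 5.61 in C57n:C3Hmt (lowest, median and highest log2 CPM). The groups overlapped through exchange library 9, at 5.61. The difference was -0.87 (SE 0.28, adjusted p = 0.415) and -1.45 within L8 (SE 0.40, adjusted p = 0.999). Plin2, a lipid droplet coat protein, differed by -0.31 (SE 0.10, adjusted p = 0.415; -0.18 without C57n:C57mt libraries 1 and 2), and Ehhadh, a peroxisomal oxidation enzyme, by -0.39 (SE 0.15, adjusted p = 0.454). Pdk4, the kinase that holds back pyruvate oxidation, differed by -0.36 (SE 0.19, adjusted p = 0.629). Its highest value, 9.33 in C57n:C57mt library 5, stood apart from the other 5 of that group.

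Other members of the list gave smaller values. Cd36, the main fatty acid transporter of the sarcolemma, differed by -0.02 (SE 0.13, adjusted p = 0.98), and Cpt1a, a carnitine transferase of the outer membrane, by -0.21 (SE 0.17, adjusted p = 0.744; -0.43 without C57n:C57mt libraries 1 and 2). Fabp4, a fatty acid binding protein strong in capillary endothelium, was lower at p over the 12 libraries (-0.50, SE 0.20, adjusted p = 0.48) but differed by -0.10 within L8 (adjusted p = 0.999). The wider list of fatty acid uptake and beta oxidation had 39 members tested. Of these, 5 were lower, Angptl4 again among them, and 1 higher at p below 0.05 (6.26% and 2.67% of all genes).

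**Figure D1:**
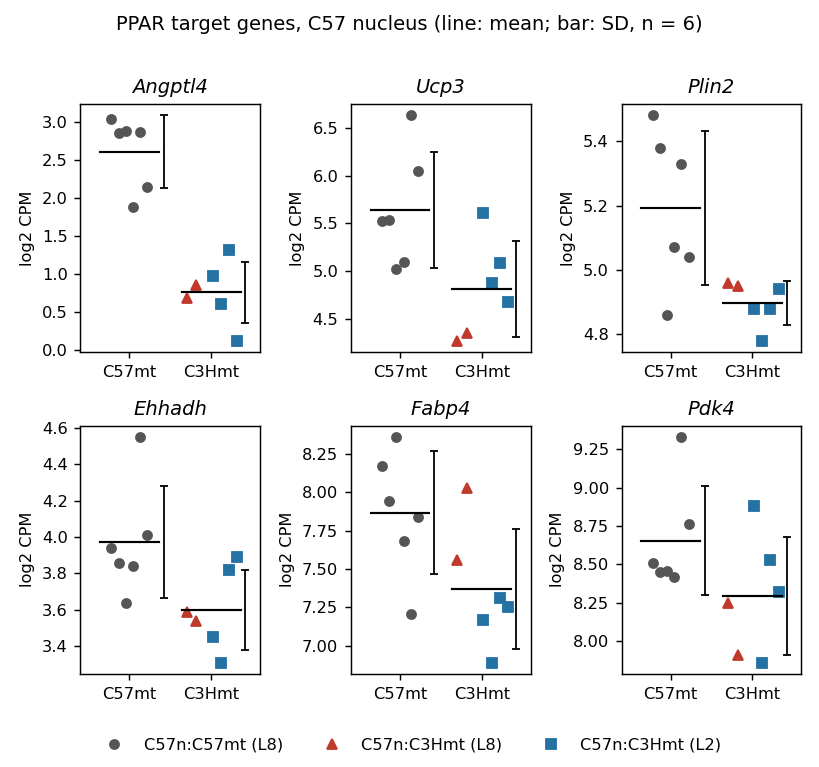
Log2 CPM of 6 PPAR target genes in each of the 12 libraries, C57n:C57mt as circles and C57n:C3Hmt as triangles (L8) and squares (L2), with the group mean as a line and the SD (n = 6) as a bar. For Angptl4 the groups do not overlap, while for Ucp3 they overlap through exchange library 9, at 5.61.

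Transcripts of the mitochondrial genome itself lay higher in all 6 C57n:C3Hmt libraries than in the 6 C57n:C57mt libraries, and were called within L8 but not over the 12 libraries. The file names 3 of them: Cytb (cytochrome b of complex III), Cox2 (a catalytic subunit of complex IV) and Atpase6 (the proton channel subunit of ATP synthase). Near-identical nuclear copies of mitochondrial genes exist in the mouse genome, and RefSeq lists Atpase6 as another name of such a copy, so these values are uncertain by the reads shared with them. The sequence of the 2 mitochondrial genomes was not analysed here, nor whether their differences alter read mapping.

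Cytb had 14.77, 15.07 and 15.47 as lowest, median and highest log2 CPM in C57n:C57mt. In C57n:C3Hmt it had 16.53 and 16.74 in the L8 libraries and 15.70 to 15.77 in the L2 libraries. All 6 exchange libraries lay above all 6 others, and the same held for Cox2 and Atpase6. The differences over the 12 libraries were 0.97 for Cytb (SE 0.22, adjusted p = 0.355), 0.84 for Cox2 (SE 0.22, adjusted p = 0.378) and 0.95 for Atpase6 (SE 0.24, adjusted p = 0.378). DESeq2, run as an alternative, called all 3.

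Within L8 the 3 transcripts rose. The log2 fold changes were 1.5 for Cytb (SE 0.19, adjusted p = 0.00431), 1.41 for Cox2 (SE 0.15, adjusted p = 0.0015) and 1.56 for Atpase6 (SE 0.16, adjusted p = 0.0015). They made up 3 of the 8 genes called higher there (0.062% of genes). The other 5 features carry predicted-gene or sequence-record names. Within L8, edgeR called 0 genes without library 7 (175 at p below 0.05) and 4 without library 8, in fits where the lone L8 exchange library is assumed to vary like the others. The L2 exchange libraries lay below the L8 exchange libraries by 0.89 for Cytb (adjusted p = 0.62), 0.97 for Cox2 (adjusted p = 0.37) and 1.07 for Atpase6 (adjusted p = 0.37), although no gene passed the adjusted test of L2 against L8 (0%; 969 at p below 0.05).

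As a share of all counts, the 3 transcripts took 9.08% to 12.6% in C57n:C57mt, 12.9% to 13.7% in the L2 exchange libraries and 19.5% and 20.8% in the L8 exchange libraries. In the 4 L2 libraries against the 6 C57n:C57mt libraries the Cytb difference was 0.60 (adjusted p = 0.334). No C57n:C57mt library is L2, so in this value the code and the mitochondria cannot be told apart. What the code stands for, and its part in the size, was not tested.

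Genes that copy and read the mitochondrial genome are nuclear. Of 23 such genes tested, edgeR gave 0 higher and 0 lower at p below 0.05, with a median of -0.07. Tfam, which packages mitochondrial DNA and starts its transcription, differed by -0.04 (SE 0.08, adjusted p = 0.906). Polrmt, the mitochondrial RNA polymerase, differed by 0.09 (SE 0.08, adjusted p = 0.764). Lrpprc, which stabilises mitochondrial messenger RNA, had 7.29 and 7.35 in the L8 exchange libraries and 7.80 to 7.85 in the L2 exchange libraries (adjusted p = 0.62 between the codes). Lrpprc was thus lowest among the exchange libraries in the 2 libraries where Cytb was highest.

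Values for nuclear genes of the respiratory chain depended on the libraries used, in both groups. Of 37 complex I genes and 46 genes of complexes II to V, 0 passed p below 0.05 in either direction, with median log2 fold changes of -0.02 and -0.02. Within L8, with all 6 C57n:C57mt libraries kept, the medians were 0.19 and 0.21. Among the exchange libraries, the medians of L2 minus L8 were -0.35 and -0.31. C57n:C57mt libraries 1 and 2 stood apart on the first principal component (38.9% of variance). Without them the medians of the group difference were 0.21 and 0.20. In that set 5 of 37 and 12 of 46 were higher at p below 0.05, where 3.48% of all genes were higher and 4.33% lower. Cytosolic ribosomal proteins followed the same course, with a median of -0.01 in all 12 libraries, 0.19 within L8 and -0.31 for L2 minus L8. Without C57n:C57mt libraries 1 and 2 the median was 0.18, and 20 of 83 were higher at p below 0.05.

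**Figure D2:**
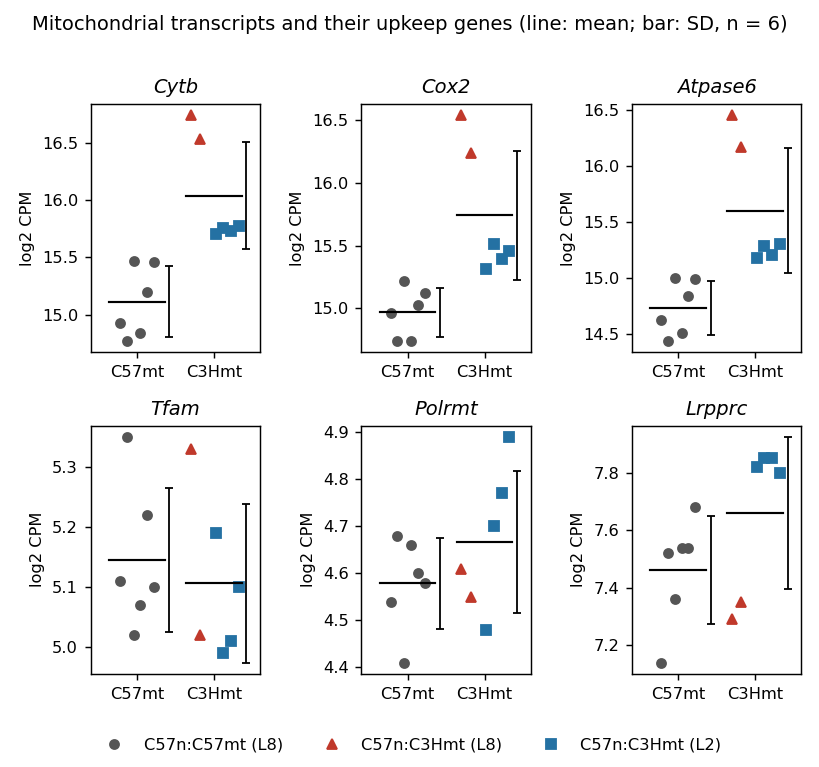
Log2 CPM of 3 mitochondrial transcripts (upper row) and 3 nuclear genes of mitochondrial transcription and RNA upkeep (lower row) in each of the 12 libraries, with the group mean as a line and the SD (n = 6) as a bar. Cytb, Cox2 and Atpase6 lie higher in all 6 exchange libraries and highest in the 2 L8 ones, where Lrpprc lies at 7.29 and 7.35.

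Regulators of mitochondrial number and quality gave small differences that missed the adjusted test. Of 23 genes of biogenesis, dynamics and mitophagy, 3 were higher at p below 0.05 and 0 lower (2.67% and 6.26% of all genes). They were Ppargc1a, the coactivator that drives biogenesis (0.53, SE 0.20, adjusted p = 0.454), Esrrb, an estrogen-related receptor (0.29, SE 0.10, adjusted p = 0.441), and Park2, a ubiquitin ligase of mitophagy (0.34, SE 0.12, adjusted p = 0.424). Ppargc1a was at 7.41 in exchange library 10, apart from the other 5 of its group (6.24 to 6.59). Without C57n:C57mt libraries 1 and 2, Ppargc1a differed by 0.35 (adjusted p = 0.626), Esrrb by 0.18 and Park2 by 0.25. In that set 1 of the 23 genes was higher at p and 0 lower (3.48% and 4.33% of all genes), with a median of 0.02. The list median was 0.08 over the 12 libraries and -0.004 within L8.

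Substrate and redox lists held few genes at p. Of 33 genes of the TCA cycle, amino acid and ketone oxidation, 3 were higher at p below 0.05 and 0 lower. Of 32 glucose genes 2 were higher and 0 lower, where 2.67% of all genes were higher and 6.26% lower. Bdh1, which oxidises the ketone body 3-hydroxybutyrate, had 5.99, 6.81 and 7.10 in C57n:C57mt and 6.99, 7.24 and 7.41 in C57n:C3Hmt (lowest, median and highest log2 CPM; difference 0.44, SE 0.15, adjusted p = 0.415). Hk2, the insulin-responsive hexokinase, differed by 0.33 (SE 0.13, adjusted p = 0.484), by 0.07 within L8 and by 0.18 without C57n:C57mt libraries 1 and 2. Nnt, the inner-membrane enzyme that makes mitochondrial NADPH, differed by 0.15 (SE 0.09, adjusted p = 0.656). Of 24 antioxidant and NRF2 target genes, 3 were lower at p: Gsta3, a glutathione transferase (-0.82), Gpx3, the secreted glutathione peroxidase (-0.44), and G6pdx, the entry enzyme of the pentose phosphate pathway (-0.39). Without libraries 1 and 2 the list had 0 lower and 6 higher (4.33% and 3.48% of all genes), and Gsta3 and Gpx3 differed by -0.26 and -0.11. The single member higher at p over the 12 libraries was Txnrd1, the cytosolic thioredoxin reductase. It did not overlap between the groups, at 5.54 to 5.75 against 5.85 to 6.07 (0.22, SE 0.07, adjusted p = 0.415).

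Genes of heart muscle stress gave no call in either direction. Myh7, the slow fetal myosin, differed by 0.64 (SE 0.25, adjusted p = 0.456) over the 12 libraries but by -0.03 within L8 (adjusted p = 0.999), and the L2 exchange libraries lay 0.91 above the L8 ones (adjusted p = 0.62). Nppa, atrial natriuretic peptide, differed by -0.73 (SE 0.34, adjusted p = 0.554; -0.35 without C57n:C57mt libraries 1 and 2) and Nppb, its ventricular relative, by 0.20 (SE 0.22, adjusted p = 0.806). Myh6 differed by 0.14 (SE 0.17, adjusted p = 0.82) and Acta1, skeletal actin, by -0.47 (SE 0.34, adjusted p = 0.72). Ctgf, a matricellular growth factor, differed by 0.47 (SE 0.13, adjusted p = 0.415) and by 0.69 within L8 (adjusted p = 0.73). Kcnj14, a potassium channel gene, was low in both groups (0.12 to 0.93 and 0.91 to 1.31 log2 CPM). On the C3H nucleus it was at 6.65 to 7.23 in the C3Hn:C57mt libraries and at 6.61 to 7.01 in the C3Hn:C3Hmt libraries.

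Several lists of genes from cells other than cardiomyocytes held many members lower at p, where 6.26% of all genes were. In RNA of a cell pellet, fewer cells of a type and less RNA per cell cannot be told apart. Of 14 macrophage markers tested, 11 were lower at p below 0.05, 3 of them without overlap, and 14 of 14 had a negative fold change (median -0.66). None passed the adjusted test. Their summed level was 98.6 to 235 CPM in C57n:C57mt and 65.6 to 102 CPM in C57n:C3Hmt. With C57n:C57mt libraries 1 and 2 left out, 9 of 14 were lower at p (4.33% of all genes) and the median was -0.48.

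Csf1r, the receptor for the macrophage growth factor CSF1, had 3.94, 4.33 and 4.86 in C57n:C57mt and 3.24, 3.77 and 3.90 in C57n:C3Hmt (lowest, median and highest log2 CPM). The groups did not overlap, though the lowest of one lay close to the highest of the other. The difference was -0.69 (SE 0.17, adjusted p = 0.362) and -0.85 within L8. Lyz2, the macrophage lysozyme, differed by -0.87 (SE 0.22, adjusted p = 0.378), Cd14, a lipopolysaccharide co-receptor, by -1.13 (SE 0.28, adjusted p = 0.378), and Laptm5, a lysosomal protein of blood cells, by -0.61 (SE 0.18, adjusted p = 0.415). Without C57n:C57mt libraries 1 and 2, Lyz2 differed by -0.51 and Cd14 by -0.70. Cd68, a lysosomal macrophage marker, did not overlap (0.80 to 1.66 against -0.62 to 0.67).

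Antigen presentation genes were lower beside the macrophage markers. MHC class II molecules carry peptides to helper T cells on dendritic cells, macrophages and B cells, and Cd74 is the chaperone that guides them. Of 11 class II genes and chaperones, a list drawn up after values had been seen, 6 passed the filter on low counts. All 6 were lower at p below 0.05 (6.26% of all genes), with a median of -0.85. The median without C57n:C57mt libraries 1 and 2 was -0.67, again with 6 of 6 lower at p (4.33% of all genes).

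Class II genes share an upstream module in which an X box and a Y box are read together by the factors that recruit Ciita. It is shown here for the 2 class II chain genes found in the promoter table, because these genes were lower together. The 150 bases before the start site, from RefSeq (GRCm38.p6, given by gene symbol; the counts were made on mm9, per the submitters' notes), are printed in lower case with CTGATTGG, a Y box core, and GCAAC, letters within the X box, in capitals.
H2-Aa (chr17:34287824-34287973, minus strand): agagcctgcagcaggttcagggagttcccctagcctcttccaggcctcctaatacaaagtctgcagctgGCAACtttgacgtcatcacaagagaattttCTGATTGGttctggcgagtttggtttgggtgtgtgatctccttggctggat
H2-Eb1 (chr17:34305717-34305866, plus strand): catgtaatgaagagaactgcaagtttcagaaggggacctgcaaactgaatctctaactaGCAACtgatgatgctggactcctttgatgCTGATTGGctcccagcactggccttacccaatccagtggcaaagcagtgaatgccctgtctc
Both windows hold each motif once, on the strand of the gene. Searched on both strands in 32851 RefSeq windows of the same length, CTGATTGG was in 3.16%, GCAAC in 19.6% and both in 0.654%. These matches describe the sequence and say nothing of what binds there.

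H2-Aa, a class II alpha chain, had 3.80, 4.46 and 4.73 in C57n:C57mt and 3.10, 3.58 and 3.86 in C57n:C3Hmt (lowest, median and highest log2 CPM). The groups overlapped through C57n:C57mt library 6, the lowest of its group. The difference was -0.87 (SE 0.16, adjusted p = 0.226), with -0.88 within L8. H2-Ab1, the matching beta chain, differed by -0.88 (SE 0.20, adjusted p = 0.355), H2-Eb1 by -0.68 (SE 0.18, adjusted p = 0.382) and Cd74 by -0.83 (SE 0.17, adjusted p = 0.261). The L2 minus L8 differences among the exchange libraries were 0.02, -0.15, 0.02 and -0.08 for these 4 genes. DESeq2 called H2-Aa, H2-Ab1 and Cd74 lower.

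Class I and interferon genes lay lower as well. Of 33 interferon response and antigen presentation genes, 33 had a negative fold change (median -0.47). At p below 0.05, 24 were lower (6.26% of all genes). The median was -0.28 within L8 and -0.32 for L2 minus L8 among the exchange libraries. Without C57n:C57mt libraries 1 and 2, 12 of 33 were lower at p (4.33% of all genes) and the median was -0.38. H2-K1, a class I heavy chain found on most cells, had 6.57, 6.71 and 6.97 in C57n:C57mt and 5.88, 6.21 and 6.47 in C57n:C3Hmt (lowest, median and highest log2 CPM). The groups did not overlap (difference -0.53, SE 0.11, adjusted p = 0.261). H2-D1, a second class I chain, differed by -0.54 (SE 0.14, adjusted p = 0.378) and Gbp3, an interferon-induced GTPase, by -0.73 (SE 0.17, adjusted p = 0.355). DESeq2 called H2-K1 and Gbp3 lower, but not H2-D1. Class I chains are near-identical to one another, so reads may be split among them.

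Of 14 fibroblast markers 7 were lower at p below 0.05, and of 37 extracellular matrix genes 15 were lower (6.26% of all genes). Dcn, a small proteoglycan of fibroblasts, differed by -0.52 (SE 0.15, adjusted p = 0.415), Gsn, an actin-severing protein high in fibroblasts, by -0.56 (SE 0.16, adjusted p = 0.415) and Col1a2, a collagen I chain, by -0.48 (SE 0.15, adjusted p = 0.415). Without C57n:C57mt libraries 1 and 2, 5 of 14 and 8 of 38 were lower at p (4.33% of all genes). Of the endothelial markers, 15 of 15 were negative in the 12 libraries (median -0.33) but the median within L8 was -0.01, and Esam, an endothelial junction protein, differed by -0.50 and -0.13 respectively. The part of these other cells in the Angptl4 and PPAR target values was not tested.

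Markers of the mesothelium, the sheet that covers the heart, were carried by 2 libraries. Their mean log2 CPM was 4.22 and 4.05 in C57n:C57mt libraries 1 and 2, 1.44 to 2.79 in the other 4 of that group and 1.64 to 2.11 in C57n:C3Hmt. Of 8 markers, 8 were lower at p below 0.05 (6.26% of all genes), with a median of -1.24. Without libraries 1 and 2, 1 of 8 was lower at p (4.33% of all genes) and the median was -0.35. Msln, mesothelin, went from a difference of -1.40 to -0.32, Upk3b, a plaque protein of mesothelium, from -1.29 to -0.43, and Wt1, a transcription factor of epicardium, from -1.0 to -0.47.

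**Figure D3:**
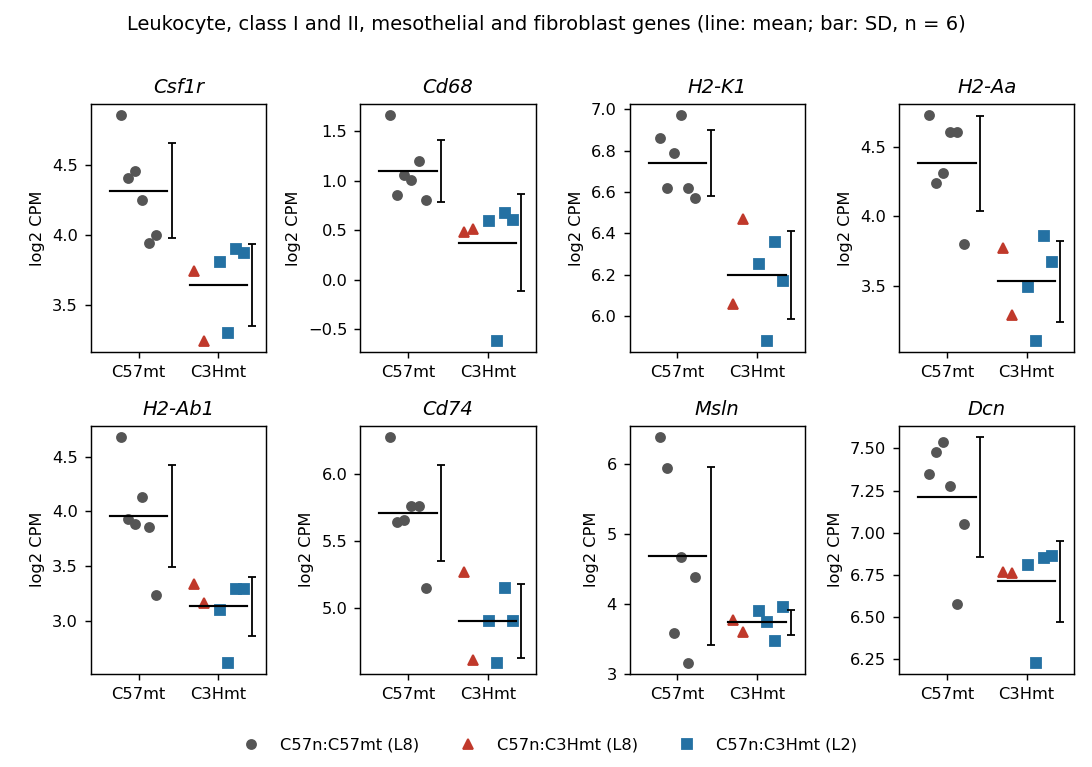
Log2 CPM of 8 genes of leukocytes, antigen presentation, mesothelium and fibroblasts in each of the 12 libraries, with the group mean as a line and the SD (n = 6) as a bar. Csf1r, Cd68 and H2-K1 do not overlap between the groups, while the Msln mean of C57n:C57mt is set by 2 libraries at 5.94 and 6.39.

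Immediate early genes respond within minutes to growth factors and to cell isolation. Of 27 tested, 7 were lower at p and 1 higher (6.26% and 2.67% of all genes), with a median of -0.33. Without C57n:C57mt libraries 1 and 2, 3 were lower and 2 higher (4.33% and 3.48% of all genes), with a median of -0.19. Within L8 the median was -0.17. Nr4a1, an orphan nuclear receptor, had 6.23, 6.75 and 7.23 in C57n:C57mt and 5.70, 6.01 and 6.34 in C57n:C3Hmt (lowest, median and highest log2 CPM). Its difference was -0.74 (SE 0.15, adjusted p = 0.261), and DESeq2 called it lower (adjusted p = 0.0149). Btg2, an antiproliferative early gene, did not overlap (-0.55, SE 0.15, adjusted p = 0.415), and Fosb, an AP-1 subunit, differed by -1.09 (SE 0.35, adjusted p = 0.415; -0.60 without those 2 libraries). Klf15, a glucocorticoid-induced regulator of heart metabolism, was on the other side (0.53, SE 0.17, adjusted p = 0.415). Its list of glucocorticoid-induced genes, which holds Angptl4, had 19 members tested. Of these, 5 were lower and 2 higher at p (6.26% and 2.67% of all genes), with a median of -0.36. Without C57n:C57mt libraries 1 and 2, 2 were lower and 1 higher (4.33% and 3.48% of all genes), with a median of -0.21. The clock genes Arntl and Dbp, which peak at opposite times of day, differed widely inside both groups: Arntl was at 0.73 and 1.27 in C57n:C57mt libraries 6 and 5 and at 0.15 and 0.69 in exchange libraries 9 and 10, against 3.35 to 4.59 in the others. With the level of Arntl minus that of Dbp as a covariate, the Angptl4 call remained (adjusted p = 0.0444).

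A few genes chosen after their values had been seen did not overlap between the groups and missed the adjusted edgeR test. Cd48, a leukocyte adhesion protein, and Prim1, a DNA primase subunit, were lower by 1.58 (SE 0.26) and 1.41 (SE 0.23), each with an adjusted p of 0.107. Dpep1, a membrane dipeptidase, was at 3.84 to 4.74 against 3.24 to 3.83 (-0.80, SE 0.15, adjusted p = 0.226). Igf1, the insulin-like growth factor, differed by -0.62 (SE 0.13, adjusted p = 0.261) and Adck2, a mitochondrial kinase-like protein, by -0.51 (SE 0.10, adjusted p = 0.261). On the higher side were Pla2g5, a secreted phospholipase (0.43, SE 0.10), and Rgs6, a brake on muscarinic signalling (0.41, SE 0.09), both with an adjusted p of 0.355. DESeq2 called each of these genes in the same direction, with adjusted p-values from 0.00388 (Cd48 and Dpep1) to 0.0192 (Pla2g5).

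**Figure D4:**
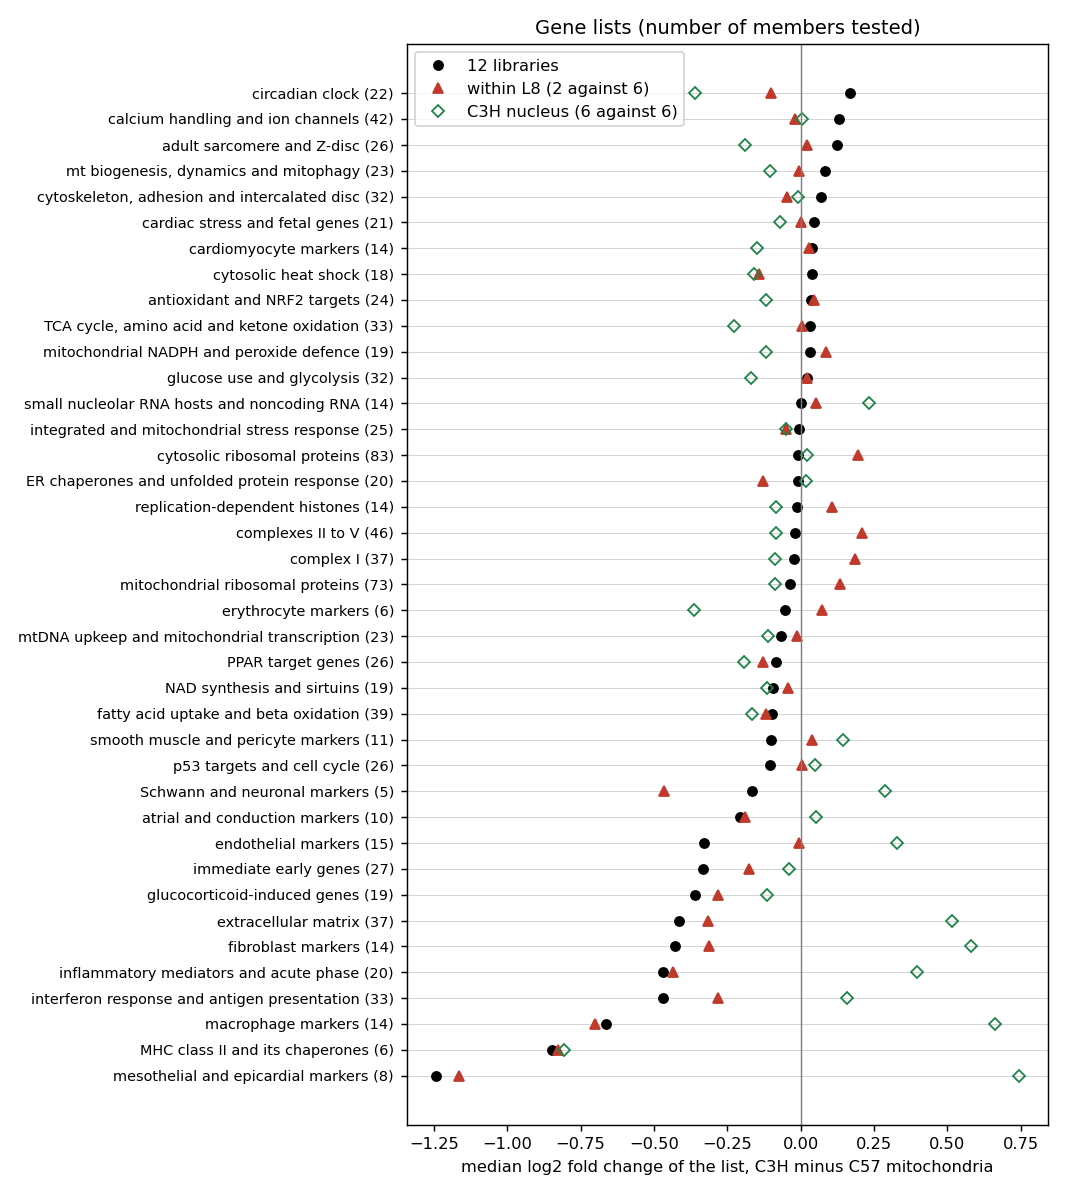
Median log2 fold change (C3H minus C57 mitochondria) of each gene list with at least 5 members tested, over the 12 libraries on the C57 nucleus (circles), within L8 (triangles) and on the C3H nucleus (open diamonds). Mesothelial, class II and macrophage lists lie lowest on the C57 nucleus, at -1.24, -0.85 and -0.66.

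The same mitochondrial difference was measured on the C3H nucleus, C3Hn:C3Hmt against C3Hn:C57mt with 6 libraries each, which shares no library with the comparison on the C57 nucleus. There 1 of 13395 genes passed (0.00747%): Prkcq, protein kinase C theta, named after its value was seen, which fell by 0.98 (SE 0.14, adjusted p = 0.00433). On the C57 nucleus Prkcq differed by 0.08 (SE 0.12, adjusted p = 0.862). The test of the difference between the mitochondrial effects on the 2 nuclei called 0 genes (0%; 2188 at p below 0.05 in edgeR, and 286 called in DESeq2). Of the 1151 genes at p below 0.05 on the C57 nucleus, 210 had the same sign on the C3H nucleus, where 42% of all genes did. On the C3H nucleus the L codes were L2 and L3, with all 6 C3Hn:C3Hmt libraries and C3Hn:C57mt libraries 17 and 18 at L3.

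The medians of the macrophage, fibroblast and matrix lists had the opposite sign on the C3H nucleus. The macrophage median was 0.66 there, with 9 of 14 higher and 0 lower at p below 0.05 (5.5% of all genes were higher and 3.88% lower), the fibroblast list had 10 of 14 higher, and the matrix list had 23 of 38 higher and 1 lower. These counts rested on C3Hn:C3Hmt library 23. Without it, 3 of 14 macrophage markers, 2 of 14 fibroblast markers and 2 of 38 matrix genes were higher at p (2.13% of all genes were higher and 2.02% lower), with medians of 0.36, 0.29 and 0.25. Csf1r differed by 0.89 (SE 0.24) on the C3H nucleus against -0.69 on the C57 nucleus, and the test of the difference gave an adjusted p of 0.0817. Without library 23 the Csf1r value was 0.55. For Igf1 the value on the C3H nucleus was 0.90 (SE 0.20) and for Dpep1 0.64 (SE 0.19), both with an adjusted p of 0.063 for the difference.

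The mitochondrial transcripts overlapped between the groups on the C3H nucleus. Cytb was at 14.2 to 16.1 in C3Hn:C57mt and at 14.5 to 15.9 in C3Hn:C3Hmt (difference 0.24, SE 0.30, adjusted p = 0.812). It lay between 0.05 (without library 24) and 0.61 (without library 15). Cox2 differed by 0.25 (adjusted p = 0.793) and Atpase6 by 0.29 (adjusted p = 0.782), and the test of the difference between the nuclei gave adjusted p-values of 0.403, 0.501 and 0.489 for Cytb, Cox2 and Atpase6.

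Over all libraries, Angptl4, Ucp3 and the class II genes had the same sign on both nuclei. On the C3H nucleus that sign rested on 1 or 2 C3Hn:C57mt libraries standing high. Angptl4 was at 3.97 and 3.87 in C3Hn:C57mt libraries 17 and 18, at 0.82 to 1.95 in the other 4 and at 1.13 to 2.40 in C3Hn:C3Hmt. The difference there was -0.94 (SE 0.43, adjusted p = 0.518), and -0.49 without library 17. Ucp3 was at 6.36 and 6.70 in the same 2 libraries and at 4.09 to 4.92 in the other 4 (difference -0.97, SE 0.36, adjusted p = 0.472, and -0.57 without library 18). Libraries 17 and 18 are the only C3Hn:C57mt libraries at L3, the code of all 6 C3Hn:C3Hmt libraries. At L3, Angptl4 and Ucp3 thus lay higher in both C3Hn:C57mt libraries than in every C3Hn:C3Hmt library, where Ucp3 was at most 4.94. Libraries 17 and 18 also had the lowest Arntl values, 1.13 and 0.555, against 2.78 to 4.39 in the others on this nucleus. The difference within L3, and the part of the clock genes in it, was not tested. H2-Aa was at 3.86 in library 18 and at 0.59 to 1.69 in the other 5 C3Hn:C57mt libraries. Its difference of -0.80 became 0.24 without library 18, and those of H2-Ab1, H2-Eb1 and Cd74 became 0.42, 0.33 and 0.47.

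Sham libraries whose titles carry the surgery word gave a further comparison, C57_MNX minus C57_wt with 3 libraries each. The titles place both on C57, whereas the genotype label of the C57_MNX libraries is C3Hn:C57mt, so the label and the title disagree on the nucleus. No gene of 12977 passed (0%; 1064 at p below 0.05 in edgeR and 0 called in DESeq2). Of 1117 genes at p below 0.05 in the 12 libraries and tested there, 180 had the same sign, against 38.0% of all genes. Angptl4 differed by 0.04 (SE 0.87, adjusted p = 0.994), Ucp3 by -0.30 (SE 0.43), Cytb by 0.30 (SE 0.19) and H2-Aa by 0.82 (SE 0.37).

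**Figure D5:**
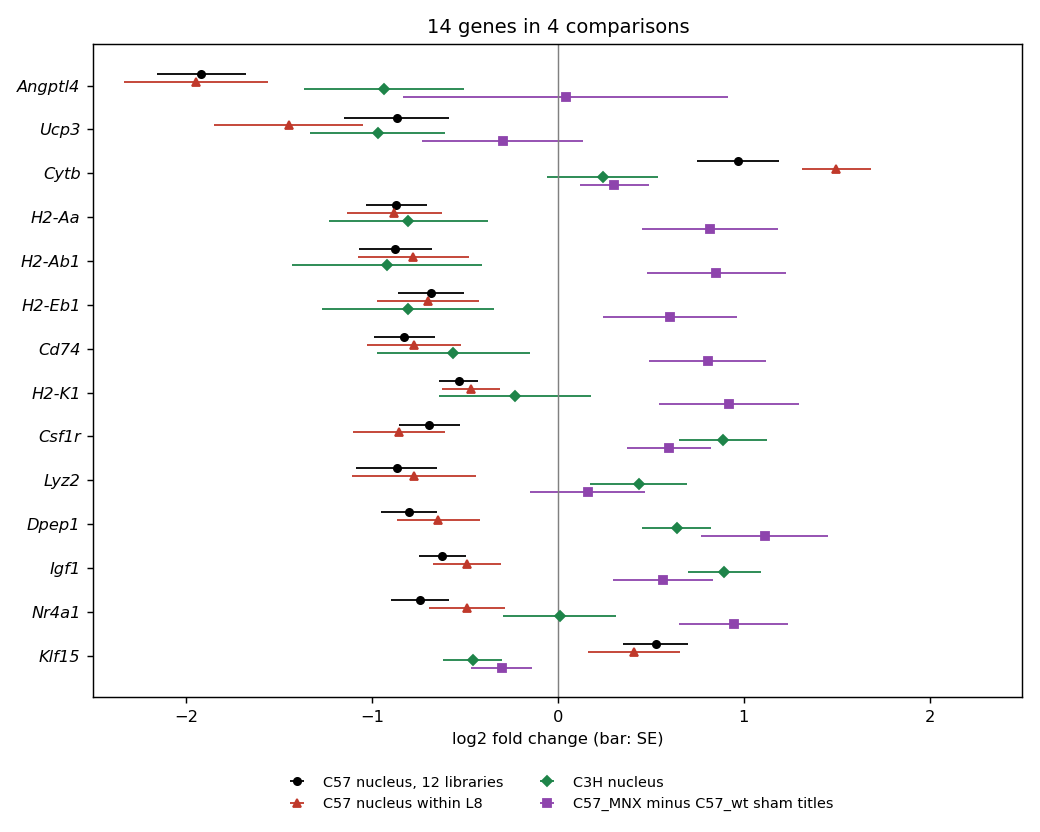
Log2 fold change with its SE for 14 genes in 4 comparisons: C3H minus C57 mitochondria on the C57 nucleus (all 12 libraries, and within L8), the same on the C3H nucleus, and C57_MNX minus C57_wt among sham titles. Angptl4 lies at -1.92 and -1.95 on the C57 nucleus, and Csf1r, Dpep1 and Igf1 change sides on the C3H nucleus, where the H2-Aa value of -0.80 rests on 1 library.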

How the data were processed

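Per the labels' protocols, stranded TruSeq mRNA libraries were sequenced on a HiSeq instrument and read mapping was proprietary. Per the submitters' processing notes, RSEM 1.2.0 with Bowtie, CASAVA 1.8.2 and build mm9 were used. The deposited table holds RSEM expected counts per gene symbol (30743 rows, 13.9% of values not whole, 0 rows without a gene name), not normalized by the authors. Expected counts were rounded. Tests used edgeR 4.0.16 in R 4.3.3: TMM normalization, filter on low counts by group, quasi-likelihood F test, Benjamini-Hochberg adjustment over all genes tested. SE is the log2 fold change divided by the square root of F. Levels are log2 CPM (prior count 2). Within-L8 values come from a fit of 3 groups (C57n:C57mt, exchange L8, exchange L2). The nuclear comparison used 24 libraries, and the sham comparison 12.

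Members, gene lists and tests were chosen with earlier results of these data known. The naming rule (abundant called genes, of which there were none; up to 4 genes per list by smallest p; 10 fixed symbols; mitochondrial transcripts) gave 156 genes. Of 64 genes named, 22 lie outside it, among them the class II genes. Of the genes that entered these tests and counts, 1 is not reported here. Nothing but the titles' numbers says that libraries are separate animals, so p-values measure the spread between libraries. Libraries of a group differed beyond sampling noise (chi-square per degree of freedom at least 4.042). Replicate numbers were not shared between groups. Alternatives were DESeq2 1.42.0, its size factors, no filter, other library sets and each library left out. The procedure was tested on simulated data.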

Additional observations from a re-analysis of the deposited data

Results flagged for a closer look

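In 128 sets of 6 values (64 genes in 2 groups), 8 values, from 5 libraries, stood apart from the other 5 of their group by Dixon's criterion, and chance alone marks about 1 in 20 such sets. Library 10 of C57n:C3Hmt was such a value for 4 genes: high for Ppargc1a (7.41 log2 CPM) and low for Cd68 (-0.62), H2-Ab1 (2.62) and Dcn (6.23). Among the C57n:C57mt libraries, Pdk4 was high in library 5 (9.33), Bdh1 low in library 3 (5.99) and Txnrd1 low in library 1 (5.54). Pla2g5 was high in C57n:C3Hmt library 7 (5.59). The test of the mitochondrial difference between the 2 nuclei called 0 genes in edgeR.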

How the results depend on the processing

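The counts of genes called moved with the test and with the libraries used. For the 12 libraries (1 gene in the main test), DESeq2 called 35 genes, the 8 L8 libraries alone 5, and the 24-library fit, that fit with the L code as a covariate, the L2 exchange libraries alone and the set without C57n:C57mt libraries 1 and 2 each 0. Within L8 (9 genes), DESeq2 called 16 and the fit without the 6 most abundant features, which drops Cytb, Cox2 and Atpase6 themselves, 2. Without C57n:C57mt libraries 1 and 2, a choice made after seeing the data, 142 of 13016 genes were called within L8, 71 in each direction. They included all 9 of the main test. Of the cytosolic ribosomal proteins 14 of 83 were called higher, where 71 of 13016 genes were. Between L2 and L8 exchange libraries DESeq2 called 13 (0 in edgeR). Between the nuclei DESeq2 called 286, and the L code as a covariate gave 2 (0 in the main test). Leaving out each library in turn gave 0 to 2 genes for the 12 libraries, 0 to 10 within L8, and 0 in each case for L2 against L8 and for the sham titles. No paired analysis was possible because the groups share no replicate number. Of 64 named genes, none had a called value that changed sign. Library 2 was the shallowest (15.97 M), and the 6 most abundant features left fewer counts for other genes in libraries 7 and 8 than in any other of the 12. The code of L2 and the genotype cannot be told apart in full, since no C57n:C57mt library has it, and 2 L8 exchange libraries carry every within-L8 value. Genes near the filter, such as Cd48 and Prim1, have few counts.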
